A study of Homo sapiens with 4 samples.

Results

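Kinesins are motor proteins that use ATP to move along or take apart microtubules, and the centromere proteins build the platform on which chromosomes meet those microtubules. The genes described here are those whose symbol in the deposited table was KIF with a number and at most one letter from A to C, KIFC with a number from 1 to 3, or CENP with a letter. This choice used names only and found 55 of the 13957 genes of the table. RefSeq and the table together give 63 such symbols. The other 8 (KIF12, KIF17, KIF19, KIF1A, KIF25, KIF2B, KIF5A and KIF6) were not listed in the table. The table holds genes down to a mean of 0.56 log2 CPM, the read count of a gene scaled to the size of its library. The 55 genes were placed by known role into 13 mitotic kinesins, 14 transport kinesins, 7 other kinesins, 19 kinetochore genes and 2 other CENP genes, CENPJ and CENPV.

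The cells were a luciferase-carrying derivative of MDA-MB-231, spelled MDA-MD-231 Fluc in the sample labels, a triple-negative human breast cancer line. In 2 samples they received 50 μM cordycepin, an adenosine analogue that lacks the 3′ hydroxyl group, for 2 hours, and in 2 others the vehicle, DMSO, for the same time. RNA was sequenced as stranded, ribosomal RNA-depleted libraries, and the labels do not say whether the duplicates were independent cultures. The values used here are 1 mean level per gene, which the authors computed over the treated and vehicle libraries together. A level therefore has no standard deviation, belongs to neither group alone and was not tested, the order of neighbouring genes cannot be judged against replicate spread, and the sequencing depth is unknown. The effect of cordycepin on these genes was not analysed here.

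The line showed most of the markers that define it. Of 4 mesenchymal markers, all lay at or above the 97.6th percentile of the table after correction for gene length, from MSN (7.10 log2 CPM per kb) to AXL (8.65). The oestrogen and progesterone receptor genes ESR1 and PGR were not listed. The epithelial genes CDH1 and EPCAM were listed at the 26.9th and 49.3rd percentiles, and GATA3, a luminal marker usually low in such cells, stood at the 55.4th percentile. EPCAM and GATA3 were thus near the middle of the table on this scale, although both had been listed in advance as low in this line. In uncorrected log2 CPM, EPCAM and CDH1 were each at 3.68 and GATA3 at 4.48, beside a median of 4.58 for all genes of the table.

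During mitosis, kinesins push spindle poles apart, move chromosomes and organise the midzone at which the cell divides, whereas transport kinesins carry vesicles and organelles throughout the cell cycle. Kinetochores rest on nucleosomes that contain CENP-A, and the constitutive centromere-associated network joins this chromatin to the outer kinetochore, which binds microtubules. Many genes of late cell cycle phases carry a cell cycle genes homology region (CHR), bound by the DREAM and MMB complexes, often a short way downstream of CCAAT boxes bound by NF-Y. The promoters were therefore read for these motifs.

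The sequences below show the CHR in the promoters of 7 mitotic kinesins, 2 kinetochore genes and the only transport kinesin that held it. They are RefSeq sequences on GRCh38.p14, written 5′ to 3′ on the strand of the gene. Capitals mark the CHR core, searched as TTTGAA on both strands, so that TTCAAA is the same core on the opposite strand.
KIF11, chr10:92593090-92593119, plus strand: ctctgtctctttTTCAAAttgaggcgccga
KIF15, chr3:44761747-44761776, plus strand: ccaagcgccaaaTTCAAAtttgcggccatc
KIF14, chr1:200620733-200620762, minus strand: gcggggcgcccaTTCAAAttgcggccttct
KIF18A, chr11:28108149-28108178, minus strand: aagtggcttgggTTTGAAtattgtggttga
KIF23, chr15:69414282-69414311, plus strand: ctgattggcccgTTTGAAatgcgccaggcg
KIF4A, chrX:70290058-70290087, plus strand: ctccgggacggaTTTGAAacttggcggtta
KIF4B, chr5:155013746-155013775, plus strand: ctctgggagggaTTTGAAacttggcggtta
CENPA, chr2:26786026-26786055, plus strand: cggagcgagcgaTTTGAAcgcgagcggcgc
CENPN, chr16:81007205-81007234, plus strand: gcaattggtggcTTTGAAggcgcggcgagc
KIF5B, chr10:32056548-32056577, minus strand: agtgcagtaaaaTTTGAAtctgcgaccccg

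A promoter sequence was found for 45 of the 55 genes and covered 250 bases before to 50 bases after the start of transcription. The CHR core was present in 10 of 13 mitotic kinesins (76.9%), 5 of 16 kinetochore genes (31.2%), 1 of 10 transport kinesins and 0 of 5 other kinesins. Among all 35116 RefSeq promoters it was present in 15.2%, and among the 9764 genes of the table with a promoter in 13.6%. The 3 mitotic kinesins without it were KIF2C, KIF20A and KIF22, and KIF22 held the related core TTCGAA. The 5 kinetochore genes with the core were CENPA, CENPC, CENPF, CENPN and CENPO. KIF4A and KIF4B are counted here and below as 2 mitotic kinesins, although their windows printed above differ at only 2 of 30 bases. In the mitotic kinesins the 11 cores began between 55 bases before and 31 bases after the start, with 2 cores side by side in KIF20B. In the transport kinesin KIF5B the core began 140 bases before the start. When the window began 100 bases before the start, 0 of 10 transport kinesins held the core. The shares in that narrower window were 6.84% of all promoters and 5.99% of the genes of the table, so 0 of 10 is near the background.

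CCAAT on either strand was more common. It was present in 11 of 13 mitotic kinesins (84.6%), 10 of 16 kinetochore genes (62.5%), 4 of 10 transport kinesins (40%) and 1 of 5 other kinesins, beside 34.6% of all RefSeq promoters and 43.6% of the genes of the table with a promoter. The share in transport kinesins thus lay between these backgrounds. Both motifs stood in the same promoter in 9 of 13 mitotic kinesins (69.2%), 4 of 16 kinetochore genes (25%) and 1 of 10 transport kinesins, beside 5.9% of all promoters and 5.71% of the genes of the table. In 6 of those 9 mitotic kinesins (KIF14, KIF4A, KIF4B, KIF11, KIF18B and KIF18A) the nearest upstream CCAAT began 23 to 35 bases before the CHR core. In the other mitotic kinesins the spacing was 9 bases in KIF23, 50 bases in KIFC1, and 122 and 128 bases for the 2 cores of KIF20B. In the kinetochore genes it was 9 bases in CENPN, 28 bases in CENPF, 39 bases in CENPC and 112 bases in CENPA. The transport kinesin KIF5B had the other order, with its CCAAT 59 bases before the start and so downstream of its CHR core. These matches are letters in a window and were not tested for binding. An E2F-like element (TTTCCCGC, TTTGGCGC, TTTCGCGC or TTTGCCGC) was found in KIF15, CENPA, CENPS and CENPU, 4 of the 45 genes (8.89%), near the 6.82% of the genes of the table. TATAAA was found in KIF4B alone (2.22%), beside 8.04% of the genes of the table.

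**Figure D1:**
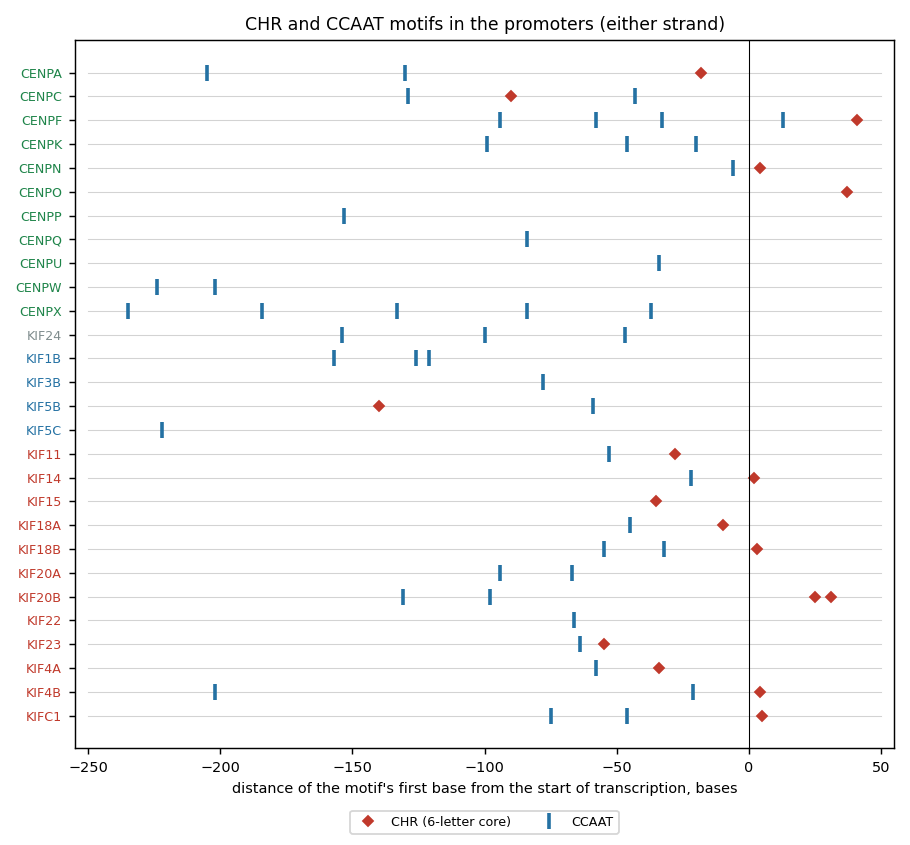
Distance in bases of each CHR core (red diamonds) and CCAAT (blue bars), on either strand, from the start of transcription (vertical line) in the RefSeq promoters of the genes with either motif; gene names are red for mitotic, blue for transport and grey for other kinesins and green for kinetochore genes. CHR cores of mitotic kinesins lie between 55 bases before and 31 bases after the start, while that of KIF5B lies 140 bases before it.

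Levels between genes are compared per kilobase (kb) of the deposited gene model, as log2 CPM per kb, unless log2 CPM is named. On this scale the median of all genes of the table was 2.43 and that of the 55 genes was 3.55, and 35 of the 55 (63.6%) lay above the median of the table. The classes differed in where they lay. The median level was 4.67 for mitotic kinesins, 3.66 for kinetochore genes, 1.74 for transport kinesins and 0.80 for other kinesins. Above the median of the table lay 12 of 13 mitotic kinesins (92.3%), 15 of 19 kinetochore genes (78.9%), 6 of 14 transport kinesins (42.9%) and 1 of 7 other kinesins (14.3%). In uncorrected log2 CPM, the planned scale, 14 of 19 kinetochore genes (73.7%) and 8 of 14 transport kinesins (57.1%) lay above it. Among the protein-coding genes of the table, 56.8% lay above the median of the table uncorrected and 51.8% per kb. The uncorrected share of transport kinesins was thus near that of protein-coding genes. The mitotic and other kinesin counts were the same on both scales. Per kb of gene model the transport kinesins were the most widely spread class, from -2.46 to 6.10, and included both the highest and the lowest of the 55 genes. Per kb of coding sequence these were CENPX (8.24) and KIF26A (-1.79). Because RNA came from whole cultures, high levels in the few cells in mitosis cannot be told apart from lower levels in all cells.

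**Figure D2:**
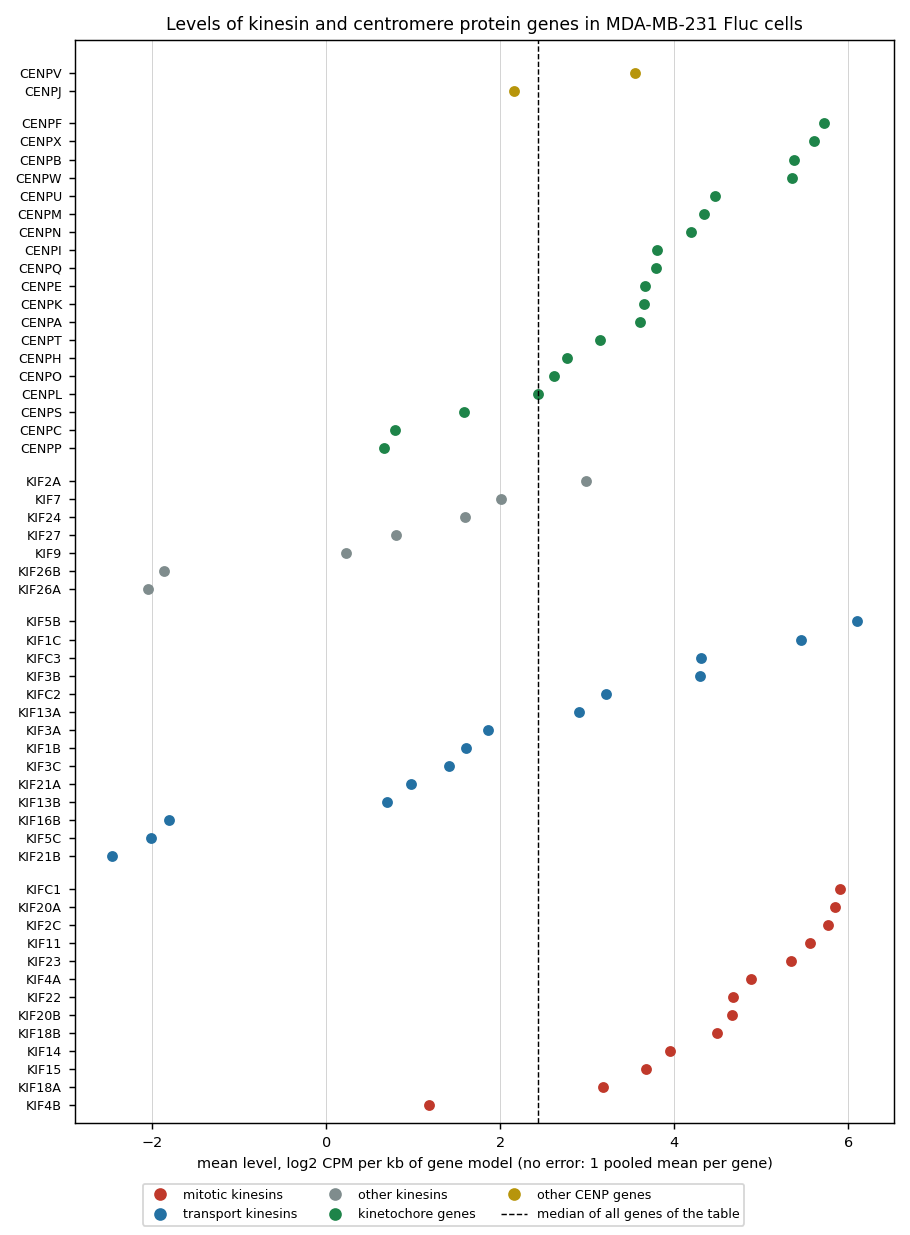
Mean level of each gene, in log2 CPM per kb of gene model, by class; each point is the authors' mean over all libraries and has no error bar, and the dashed line is the median of all genes of the table (2.43). Of the mitotic kinesins KIF4B alone lies left of the line, whereas transport kinesins run from -2.46 (KIF21B) to 6.10 (KIF5B).

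Among the mitotic kinesins, motors of spindle assembly and of cytokinesis were found both at the top and lower in the class. KIFC1, a minus-end-directed motor that bundles spindle microtubules and gathers extra centrosomes, was highest at 5.90 log2 CPM per kb (93.9th percentile of the table), although per kb of coding sequence KIF2C (6.51) and KIF23 stood just above it (6.49). KIF20A, which brings the chromosomal passenger complex to the midzone, followed at 5.85, and KIF2C, which takes microtubules apart at centromeres, at 5.77. KIF11 (ENSG00000138160, chr10:92593130-92655395), the motor that slides spindle poles apart, lay at 5.56, or 7.89 log2 CPM. KIF23, the kinesin of centralspindlin, had the highest uncorrected level of the class (8.05 log2 CPM) and 5.34 per kb.

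Lower in the class lay the chromokinesins KIF4A (4.88) and KIF22 (4.67), the cytokinesis kinesins KIF20B (4.66) and KIF14 (3.95), and KIF18B (4.49), which shortens astral microtubules. KIF15, which can stand in for KIF11 in holding the poles apart, was listed at 3.68 log2 CPM per kb and KIF18A, which damps the movements of aligned chromosomes, at 3.18. KIF4B was the exception to the class at 1.18 (28.6th percentile). Without KIF4B the class ran from 3.18 to 5.90, that is from the 63.5th to the 93.9th percentile.

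The transport kinesins fell into a few abundant genes and a long tail. KIF5B (ENSG00000170759, chr10:32009015-32056425), the ubiquitous heavy chain of conventional kinesin, was the highest of all 55 genes per kb of gene model at 6.10 (94.7th percentile), and the next after CENPX per kb of coding sequence (7.12 and 8.24). KIF1C, a kinesin of vesicle transport, lay at 5.46, and KIF5B and KIF1C made up 57.5% of the summed CPM of the class. The minus-end motor KIFC3 and the kinesin-2 subunit KIF3B followed at 4.31 and 4.30. KIFC2 and the endosomal kinesin KIF13A, at 3.21 and 2.90, were the last of the class above the median of the table. Below it followed KIF3A (1.86), KIF1B (1.61), KIF3C (1.41), KIF21A (0.98) and KIF13B (0.70). At the end of the tail KIF16B, which moves early endosomes, lay at -1.80, KIF5C, a conventional kinesin enriched in neurons, at -2.01, and KIF21B, which limits microtubule growth, at -2.46. These last 3 genes lay between the 0.39th and the 1.39th percentile, and their levels were 1.14 to 1.19 log2 CPM, close to the lower end of the table.

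Of the other kinesins, KIF2A, a relative of KIF2C that takes microtubules apart at spindle poles and in interphase, was the only one above the median of the table, at 2.99 log2 CPM per kb. The ciliary Hedgehog regulator KIF7 lay at 2.01 and KIF24, which restrains cilium formation at the centriole, at 1.60. KIF27 was listed at 0.80 and KIF9, a kinesin of motile cilia, at 0.23. KIF26B and KIF26A, atypical kinesins that bind microtubules without moving along them, were lowest at -1.86 and -2.05. KIF26A had the lowest uncorrected level of all 55 genes, 0.71 log2 CPM.

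Relatives within a subfamily (kinesins of the same number, and KIFC3 with KIFC2) were compared in 12 pairs, with gaps from 1.14-fold to 276-fold per kb. KIF3A and KIF3C, at 1.86 and 1.41, were not among these pairs. Unrelated genes were not paired, so whether such gaps are wider than between any genes of the table was not tested. The widest gap was in conventional kinesin, in which KIF5B exceeded KIF5C by 8.11 on the log2 scale per kb, 276-fold. KIF1C exceeded KIF1B 14.5-fold, KIF4A exceeded KIF4B 13-fold and KIF21A exceeded KIF21B 10.8-fold. Within kinesin-2, whose KIF3A pairs with KIF3B or KIF3C, KIF3B exceeded KIF3C 7.44-fold and KIF3A 5.43-fold. KIF2C exceeded KIF2A 6.87-fold per kb of gene model but 2.71-fold per kb of coding sequence, KIF2A having a coding sequence of 2235 bases in a gene model of 9471 bases. Smaller gaps were found for KIF13A over KIF13B (4.62-fold), KIF18B over KIF18A (2.48-fold), KIF20A over KIF20B (2.29-fold) and KIFC3 over KIFC2 (2.15-fold). KIF26B and KIF26A differed 1.14-fold. Per kb of coding sequence the gap was 174-fold for KIF5B over KIF5C, 4.44-fold for KIFC3 over KIFC2, which then exceeded those of the KIF2, KIF18 and KIF20 pairs (2.71-, 2.72- and 2.63-fold), and 2.16-fold for KIF26B over KIF26A. Each of these is a ratio of 2 means without replicate error.

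**Figure D3:**
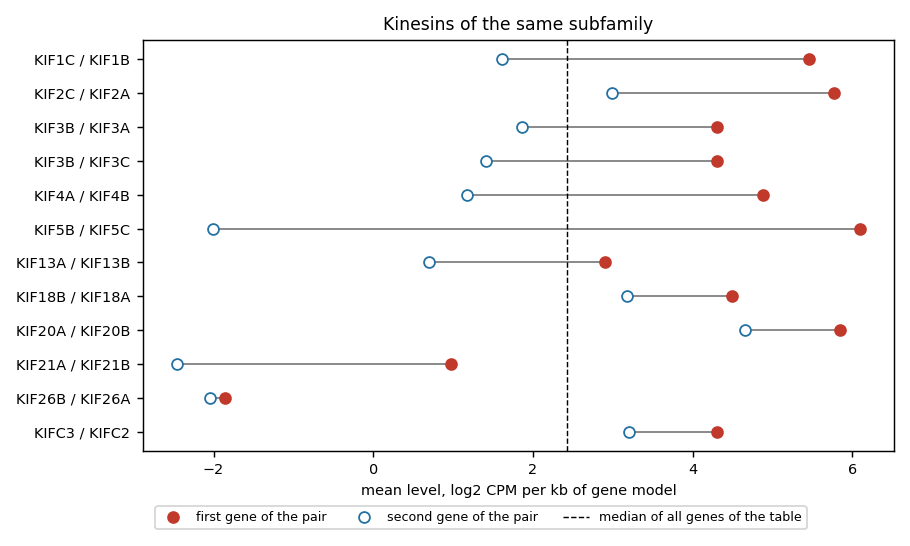
Mean levels (log2 CPM per kb of gene model) of kinesins of the same subfamily, with the gene named first as a filled red point, the gene named second as an open blue point, and the median of all genes dashed (2.43). The widest pair is KIF5B and KIF5C, at 6.10 and -2.01, and the narrowest KIF26B and KIF26A, at -1.86 and -2.05.

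Of the kinetochore genes, CENPF (ENSG00000117724, chr1:214603195-214664571), a large coiled-coil protein of the nuclear matrix and outer kinetochore, stood first at 9.27 log2 CPM, rank 189 of the 13957 genes. It made up 42% of the summed CPM of the class, and was also the highest of the class per kb of gene model, at 5.72. Per kb of coding sequence it lay at 6.04, below CENPX (8.24), CENPW (6.92), CENPB (6.06) and CENPK (6.06). CENPE, a kinesin by structure that is named for its place at the kinetochore and carries chromosomes to the spindle equator, lay at 6.97 log2 CPM and 3.66 per kb. CENPF thus exceeded CENPE 4.19-fold per kb. The proteins of centromeric chromatin lay at 5.37 per kb for CENPB, which binds a short element in alpha-satellite DNA, and 3.60 for CENPA (chr2:26764289-26801067), the histone H3 variant that marks the centromere. Uncorrected, CENPA was at 4.56 log2 CPM, near the median of the table (4.58), and its gene model is 1949 bases long.

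The 15 genes of the constitutive network had a median of 3.65 log2 CPM per kb and ran from 0.67 to 5.61. In the CENP-T-W-S-X subcomplex, whose members carry histone folds, CENPX (5.61) and CENPW (5.35) were the highest of the network, CENPT, which recruits the NDC80 complex, lay at 3.15, and CENPS at 1.58. CENPX exceeded its direct partner CENPS 16.3-fold per kb of gene model and 24.2-fold per kb of coding sequence. The readthrough gene CENPS-CORT overlaps 65% of the exon bases of CENPS on the same strand, so these ratios are uncertain. In the CENP-H-I-K-M subcomplex the levels were 4.34 for CENPM, 3.80 for CENPI, 3.65 for CENPK and 2.77 for CENPH. In the CENP-L-N pair CENPN, which contacts the CENP-A nucleosome, lay at 4.19 and CENPL at 2.43, the median of the table.

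In the CENP-O-P-Q-U subcomplex CENPU, a docking site for the kinase PLK1, lay at 4.47, CENPQ at 3.79, CENPO at 2.62 and CENPP at 0.67. CENPC, which links CENP-A nucleosomes to the outer kinetochore, lay at 0.79 (22.8th percentile). Several of these genes have long untranslated or alternative exons in their gene models, which lowers a level per kb of gene model. CENPP has a coding sequence of 867 bases in a model of 9321 bases, and its level per kb of coding sequence was 4.09. On that scale CENPC remained lowest of the network at 2.38 and CENPX highest at 8.24.

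**Figure D4:**
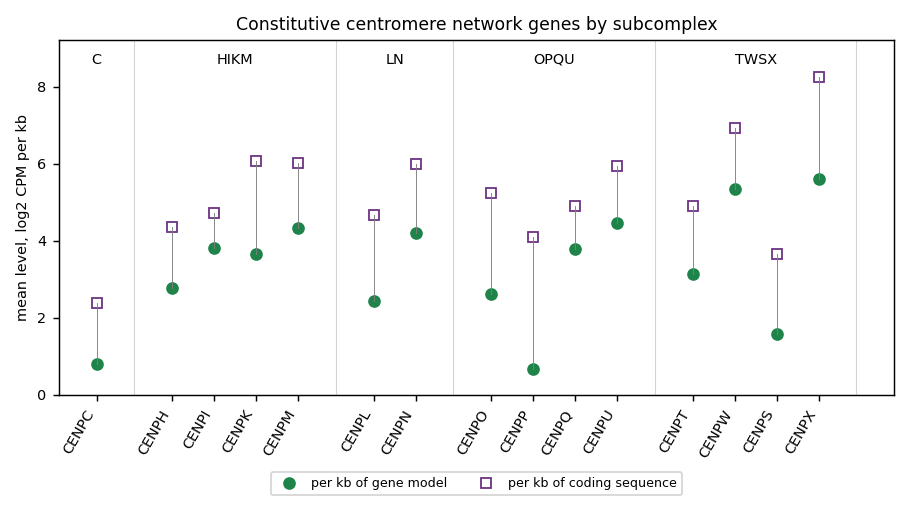
Mean levels of the 15 constitutive network genes by subcomplex, in log2 CPM per kb of gene model (green points) and per kb of coding sequence (open purple squares), without error bars. CENPX lies highest on both scales (5.61 and 8.24), and the distance between the scales is widest for CENPP (0.67 and 4.09).

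The 2 other CENP genes lay on either side of the median of the table. CENPJ, which controls the length of centrioles, was listed at 2.16 log2 CPM per kb and CENPV, named for a protein of centromeric heterochromatin, at 3.55.

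Length correction mattered for these classes. Across the 55 genes the Spearman correlation between gene model length and level was -0.09 for log2 CPM and -0.45 for log2 CPM per kb, the latter containing the length in its own denominator, and genes are not independent replicates. In uncorrected log2 CPM the medians were 7.08 for mitotic kinesins, 5.15 for kinetochore genes and 3.76 for other kinesins. The transport kinesin median changed sides with the correction. In uncorrected log2 CPM it lay above the median of the table (4.58), just below that of the kinetochore genes. Per kb of gene model it was 1.74, below the median of the table (2.43). The kinetochore median thus exceeded the transport kinesin median by 0.15 without the correction and by 1.92 per kb, and the mitotic median exceeded the transport median by 2.08 and 2.94. When only genes above the lowest 25% of levels in the table were kept, which removes low transport kinesins, the kinetochore less transport difference was -0.36 on the log2 CPM scale.

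**Figure D5:**
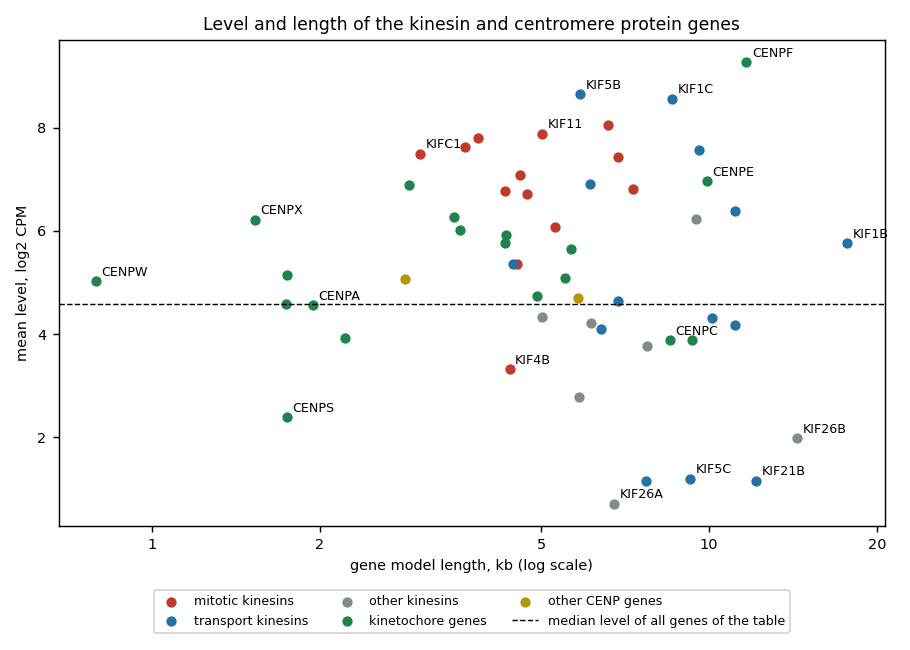
Mean level (log2 CPM) against the length of the gene model (kb, log scale) for the 55 genes, coloured by class, with the median level of all genes dashed (4.58). CENPF is highest at 9.27 with a long gene model, whereas the short CENPX and CENPW lie at 6.22 and 5.02.

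Genes that act beside the kinetochore genes and the kinesins were read from lists drawn up from their roles. All 25 further kinetochore, checkpoint and centromere-loading genes were listed, with a median of 4.57 log2 CPM per kb, and 22 (88%) lay above the median of the table. The highest was ZWINT (6.17), which binds the outer kinetochore scaffold KNL1, and the lowest the checkpoint gene MAD1L1 (-1.36). All 10 kinesin light chain and adaptor genes were listed too, with a median of 2.43, from KLC4 (0.89) to KLC2 (4.69), both light chains of conventional kinesin, and 5 lay above the median of the table.

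KIF4A and KIF4B need to be read together because their sequences are nearly the same. KIF4A (ENSG00000090889, chrX:70290104-70420886) has 31 exons, whereas KIF4B (ENSG00000226650, chr5:155013755-155018141) has 1. Their coding sequences are 3699 and 3705 bases long, and 3547 of 3699 aligned bases (95.9%) were identical. The promoter windows printed above differ at 2 of 30 bases. Identical stretches reached 151 bases, and 195 of the 4314 75-base words of the KIF4A transcript (4.52%) also occur in KIF4B. A single read of this length could come from either gene there. The study describes paired-end reads of 75 bases, and whether the other read of a pair would tell the genes apart was not tested. The 30 coding bases in which they differ most within an exon of KIF4A, at coding positions 1636 to 1665, show how reads can be assigned elsewhere, with the 5 differing bases in capitals.
KIF4A, exon 15, chrX:70353769-70353798, plus strand: aaTgacaGccaactGcagcccattcagtAC
KIF4B, exon 1, chr5:155015495-155015524, plus strand: aaCgacaAccaactAcagcccattcagtTT
How reads with several equally good positions were counted is not given in the sources used here, and the part of shared reads in the KIF4B level of 3.32 log2 CPM was not tested.

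A few other levels rest on shared sequence. Of the 75-base words of CENPS, 55.8% also belong to the readthrough gene CENPS-CORT, which overlaps 65% of its exon bases on the same strand, so the low CENPS level is uncertain. Shared words made up 16.7% for CENPN, 12.1% for KIF27, 3.26% for KIF2A and 1.99% for CENPC. All these shares are for single words and do not take account of read pairs. In 45 of the 55 genes no 75-base word of the main transcript was found in another gene. Exons on the opposite strand overlap 43.2% of the exon bases of CENPP (mostly IPPK), 31.6% of CENPO (mostly ADCY3) and 20.2% of CENPT. The libraries were stranded, but the strand setting of the counting is not given in the sources used here, and the part of the opposite strand in these levels was not tested.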

How the data were processed

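RNA-seq of 4 samples (2 cordycepin, 2 vehicle) was reported as 1 table of 13957 genes. The authors' deposited values used here are the mean log2 CPM of each gene over all libraries, with gene model length and GRCh38 coordinates. The study describes alignment to GRCh38 and counting with rsubread, whereas the submitters' processing notes name TopHat, HTSeq, DESeq and Cufflinks on hg38, with no version, so the counting tool is uncertain. The remaining deposited columns hold the authors' own comparison of cordycepin with vehicle (log2 fold change, test statistic, p-value, adjusted p-value and a rank) and were not used. There were 0 columns of values per sample, so no depth, spread or test could be computed, and the planned edgeR comparison was not made.

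From these values log2 CPM per kb was computed by subtracting log2 of the gene model length, or of the coding length in GENCODE release 44, which held 99.7% of the gene IDs; 39 of the 55 genes had the same start and end there. Percentiles are over all genes of the table. CPM shares sum the authors' means after conversion to a linear scale. Promoters are RefSeq sequences on GRCh38.p14, and a gene was counted if any of its promoters held the motif. The 10 genes without one were CENPH, CENPJ, CENPL, CENPM, KIF13B, KIF21B, KIF26B, KIF27, KIFC2 and KIFC3. Shared sequence was read as exact 75-base words of the canonical transcript, and overlap from GENCODE exons. The planned description of motor domains in protein sequences was not made.

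The genes, classes and lists were chosen with earlier results of these data known. Every gene is placed in its class. The rule for naming took the 3 highest and 3 lowest of each class by log2 CPM, kinesins with a listed relative of the same number, CENPA, CENPE, CENPF, KIF11, and the extremes of each further list; the others, and the genes with shared or overlapping sequence, were named after their values were seen, so that each class is given whole. The E2F and TATA searches, motif spacing, shared words and exon overlap were added after the table was opened. Scripts ran in Python 3.11.15 with numpy 2.4.6, pandas 2.3.3, Biopython 1.88 and matplotlib 3.10.9. The motif search and a single percentile were checked on made-up values. A planted shift of a median was checked too, but its outcome was fixed by its construction, and the class medians were not tested.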

Additional observations from a re-analysis of the deposited data

How the results depend on the processing

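Of 37 alternative values, 22 stayed within the limits set for them. The mitotic less transport kinesin median (2.08 in log2 CPM) was 2.79 per kb of canonical transcript, 1.96 per kb of coding length, 1.32 among genes above the lowest 25% of levels, 2.02 with CENPE and 1.95 with KIF2A counted as mitotic, and, as alternatives chosen after seeing the data, 2.94 per kb of gene model and 2.26 without KIF4B. The kinetochore less transport kinesin median (0.15) was 1.90 per kb of transcript, 1.82 per kb of coding length, 0.12 without CENPE, 1.92 per kb of gene model, and turned to -0.36 among genes above the lowest 25%, where 9 rather than 14 kinetochore genes lay above the median of the retained genes. With the promoter window begun 100 bases before the start, transport kinesins with a CHR fell from 1 to 0 of 10 and those with CCAAT from 4 to 2. The backgrounds fell too. In that window the CHR was present in 5.99% of the genes of the table. CCAAT was present in 29.5% of them and in 21.3% of all promoters, beside 20% of the transport kinesins. With no replicate error, any change of a median counted as a move. No paired analysis was possible because the table holds no values per sample, and for the same reason the planned edgeR test, DESeq2, the low-count filter and leaving out replicates were not run. Depth, and the precision it gives, is unknown.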

Other observations

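Members of different classes lie close together in the genome in 3 places, counted as gaps under 1 Mb on GRCh38. KIF1B and CENPS on chromosome 1 are 48829 bases apart, with levels of 1.61 and 1.58 log2 CPM per kb. KIF14 and KIF21B, also on chromosome 1, are 348638 bases apart and lie at 3.95 and -2.46. KIF3C and CENPA on chromosome 2 are 781539 bases apart and lie at 1.41 and 3.60. These are values of single genes without replicate error, and no relation between position and level was tested.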
